A study of Mus musculus with 4 samples.

Results

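Genes that mark B cells, T cells and natural killer (NK) cells were followed across interscapular brown adipose tissue (iBAT) and epididymal white adipose tissue (eWAT) of wild-type (WT) and ASK1-deficient mice. The members were chosen by name, as every array probe whose gene name in the scanner files equals one of the lymphocyte genes, and 37 genes with 50 probes were found among 22066 genes and 55681 probes. Igj is the older name of Jchain and is the name on the array. The genes fall into 5 classes, which are 10 B cell genes, 8 genes of the T cell receptor complex and its kinases, 8 genes of lymphocyte surface and costimulation, 7 cytotoxic and NK genes, and 4 genes of regulatory T cells and type 2 immunity.

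Messenger RNA was measured on 4 one-colour arrays, 1 for either genotype in either tissue. Each array received RNA pooled from 3 male mice aged 10 weeks under normal conditions, without a treatment in any group. The ASK1-deficient mice lack the kinase in the whole body, the strain named in the methods is C57BL/6 J, and the WT and ASK1-deficient mice were bred as separate colonies, so that genotype and colony cannot be told apart. With 1 array per condition the spread between mice is unknown and no test was possible within a tissue. Precision is limited by this number of arrays, and the only spread available is that between repeated spots of one probe, whose SD of the log2 ratio was 0.0869 (iBAT) and 0.0599 (eWAT) at the median.

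Lymphocytes are a minor part of adipose tissue, where they sit among adipocytes, vessels and macrophages. T cells recognise antigen through a receptor that signals through the CD3 chains and the kinases Lck and Zap70, and NK cells and cytotoxic T cells kill target cells with perforin and granzymes. B cells carry immunoglobulin on their surface with the CD79 chains, and plasma cells secrete it, as IgM and IgA polymers held together by the joining chain that Igj encodes. Regulatory T cells defined by Foxp3 and type 2 innate lymphoid cells, which use Gata3 and the interleukin 33 receptor Il1rl1, are known residents of visceral fat. In RNA of whole tissue, fewer cells of a type and less RNA per cell cannot be told apart.

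The values are processed signals, intensities in arbitrary units, and a log2 ratio is the difference of log2 signals after subtraction of each array's 75th percentile. A probe is called detected where the scanner software marked it well above background, and the ratio of a gene is the mean over its probes detected on both arrays. Ratios can be set side by side, whereas signals of different probes cannot. Map3k5, which encodes ASK1, had a log2 ratio in iBAT of -2.0 at one probe and -0.06 at the other, and in eWAT of -1.76 and -0.51. The arrays also differed in RNA of other tissues. Of 10 hepatocyte genes, 3 (WT) and 9 (ASK1-deficient) were detected in iBAT and 10 (WT) and 5 (ASK1-deficient) in eWAT, and the 5 measured on both eWAT arrays had log2 ratios between -6.30 and -2.91. The summed level of this list, relative to the 75th percentile, was 39.9 in WT eWAT and between 4.34 and 8.41 on the other arrays. The skeletal muscle list summed to 526 in WT and 517 in ASK1-deficient iBAT, beside 8.28 and 4.15 in eWAT. Whether RNA of these tissues takes part in the lymphocyte values was not tested.

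More lymphocyte genes were detected in eWAT than in iBAT. Of the 37 genes, iBAT had a detected probe for 25 (WT) and 27 (ASK1-deficient), and eWAT for 32 (WT) and 31 (ASK1-deficient). In probes this was 56% and 62% in iBAT and 82% and 80% in eWAT, beside 52.1%, 54.8%, 60.0% and 58.3% of all probes on the same arrays. The members thus exceeded the share of all probes most in eWAT. Detection on all 4 arrays held for 23 genes, and Cd27, Klrk1 and Pou2af1 were detected in eWAT and on neither iBAT array. Areg, Blk, Cd8a, Ctla4 and Pax5 were not well above background on any array, so the alpha chain of the killer T cell coreceptor CD8, a checkpoint receptor and the master regulator of B cell identity have no measured value here.

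**Figure D1:**
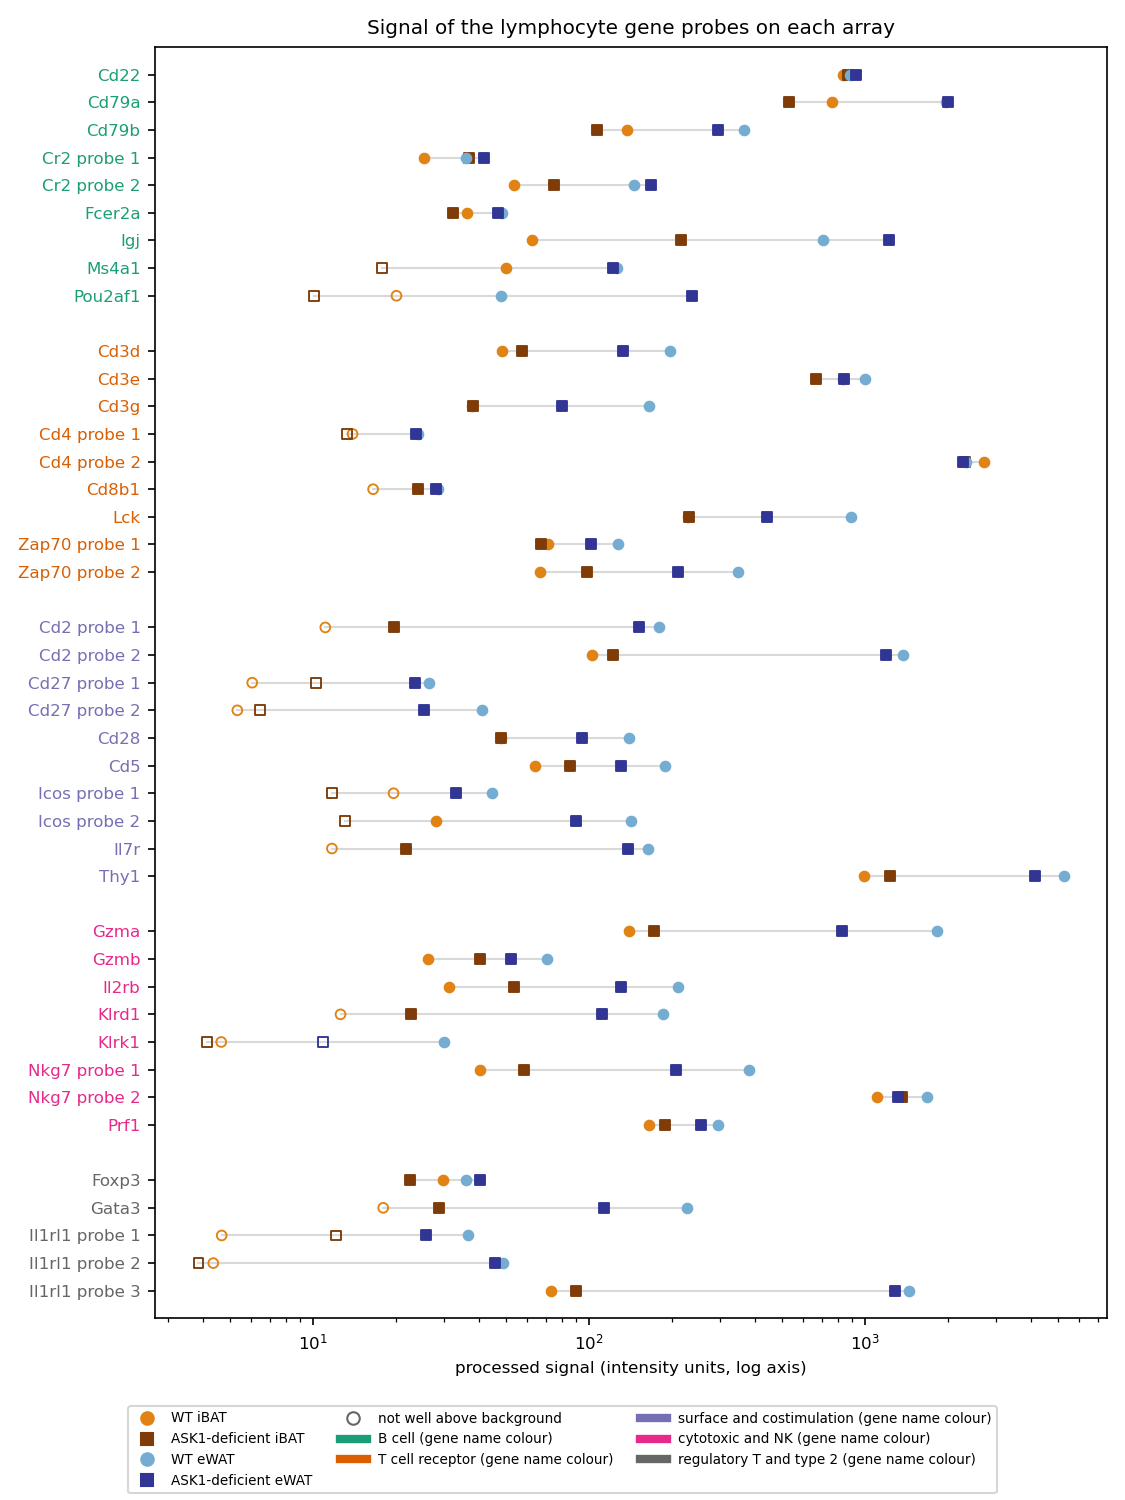
Processed signal (intensity units, log axis) of each lymphocyte gene probe that was well above background on at least 1 array, with 1 point per array (circles WT, squares ASK1-deficient, orange and brown iBAT, light and dark blue eWAT) and open points where the probe was not well above background. The signals are not scaled between arrays, whose 75th percentiles were 356 and 371 in iBAT and 673 and 634 in eWAT (WT and ASK1-deficient), so eWAT points lie further right than the scaled ratios, and levels of different rows cannot be compared. Most rows of T cell and NK genes have WT eWAT as the highest point, whereas Igj and Pou2af1 end in ASK1-deficient eWAT.

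The ends of the probes behind the main values are shown, with 3 genes whose value depends on which probe is read and the 3 genes, of 1 probe each, measured at least 2-fold apart between the genotypes in a tissue, as the last 30 bases of the designed sequence in the scanner files, 5′ to 3′, with the hexamer AATAAA, the usual signal for messenger RNA cleavage and polyadenylation, in capitals where it occurs.
Cd4, detected on all 4 arrays: acagaaaAATAAAggctataAATAAAatgc
Cd4, detected in eWAT: gcagtgtctactgagtgaaggtgataaggt
Cd79a, detected on all 4 arrays: gtgatAATAAAtccttcccaaagcaaaaaa
Cd79a, detected on no array: gtacttacctccgcgtgcgcaatccagtcc
Cd2, detected on all 4 arrays: tccAATAAAaagctgtgtggatttatcttc
Cd2, not detected in WT iBAT: aaaggtctgtccttctatgtcacagtgggg
Igj: gtgtagagaaaacagccaatgaacacagga
Pou2af1: tttgcaacattttcAATAAAgattggttag
Gzma: gtctgatcacaAATAAAatcaacttgaatg

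Of 11 members with several probes, 4 had one that holds AATAAA, the 3 shown as pairs and Icos, and in each that probe was detected on more arrays than the others of its gene. The other 7 had none with it, and among these the probes of Cr2, Il1rl1, Nkg7 and Zap70 also differed in their ratios or detection. Searched on the given strand only, the hexamer occurred in 10 of the 50 member probes, 20%, and in 10.1% of all probes. Over the whole array, 64.2% of the probes with it and 50.7% of those without it were detected in WT iBAT. A match is a description of the sequence and not a mapped cleavage site.

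The Cd4 probe with the hexamer, on chromosome 6 of mm9 from 124814711 to 124814770, gave iBAT signals of 2704 (WT) and 2300 (ASK1-deficient) and eWAT signals of 2321 (WT) and 2267 (ASK1-deficient). This is the only member at least 2-fold lower in eWAT than in iBAT, with a log2 ratio of -1.14 in WT. The other Cd4 probe, from 124817706 to 124817765 and printed in 10 spots, was below detection in iBAT, with signals of 13.95 and 13.33, and gave 24.1 and 23.7 in eWAT. The second probe gives no direction between the tissues, so the tissue ratio of Cd4, the coreceptor of helper T cells, rests on the first probe alone. For Cd79a, a signalling chain of the B cell receptor, the detected probe is placed by the files on chromosome 12 from 53180558 to 53180617, while the gene lies on chromosome 7 in the RefSeq table. It was the 1 member probe of 50 with such a mismatch, beside 166 of 30828 probes compared over the array. Its signals were 759, 531, 1967 and 2007 in the same order, and its values are given with this reservation. The Cd22 probe shares a run of at least 20 bases with probes named for Banp and Gm8479, and the Gzma probe shares one with 1 probe that carries no gene name. The signals of the Cd22 probe stayed between 837 and 927 on all arrays.

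eWAT and iBAT of WT mice were compared first, to place the lymphocyte genes before genotype is considered. Most members were higher in eWAT, 19 of the 25 measured on both WT arrays, which 43.6% of all genes were. Of these 25, 10 were at least 2-fold higher in eWAT, which 13.4% of all genes were, and 1, Cd4, was at least 2-fold lower, which 16.4% of all genes were. The others below 0 were Cd22 at -0.84, Cd3e at -0.66, Foxp3 at -0.63, Fcer2a at -0.49 and Prf1 at -0.09. These counts leave out Gata3, Il7r and Klrd1, which were not detected in WT iBAT and were at least 2-fold higher in eWAT. The median log2 ratio, eWAT minus iBAT, was 0.64 for the members and -0.12 for all 14236 genes measured. Without scaling of the arrays the members' median was 1.56 and with normexp background correction it was 0.20.

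Among the members with a measured tissue ratio, the largest was that of Il1rl1. Its probe on chromosome 1 from 40522187 to 40522246 gave iBAT signals of 73.2 (WT) and 90.0 (ASK1-deficient) and eWAT signals of 1445 (WT) and 1284 (ASK1-deficient). Both eWAT arrays lay far above both iBAT arrays, with log2 ratios of 3.38 (WT) and 3.06 (ASK1-deficient). Both other Il1rl1 probes were detected in eWAT only. Gata3, the transcription factor of type 2 lymphocytes, gave iBAT signals of 18 (WT, not well above background) and 28.7 (ASK1-deficient) and eWAT signals of 228 (WT) and 113 (ASK1-deficient). In WT it was at least 6.11-fold higher in eWAT, and in ASK1-deficient mice its log2 ratio was 1.21. A bound of this kind sets the bright level against the lowest detected level of the dim array or the dim probe's own level, whichever is higher.

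Cd2, the adhesion receptor by which T and NK cells bind their partners, had log2 ratios of 2.83 (WT) and 2.35 (ASK1-deficient). Its probe with the hexamer gave 103, 123, 1381 and 1199 in WT iBAT, ASK1-deficient iBAT, WT eWAT and ASK1-deficient eWAT. The other probe, in 10 spots, gave 180 and 153 in eWAT and was at most 19.7 in iBAT, so both Cd2 probes were higher in eWAT. Thy1, a surface protein of T cells that fibroblasts also carry, gave 991, 1234, 5261 and 4133. Il7r, the interleukin 7 receptor that keeps resting lymphocytes alive, was at least 4.40-fold higher in eWAT of WT mice and had a log2 ratio of 1.90 in ASK1-deficient mice.

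Among the killer genes Gzma and Klrd1 differed widely between the tissues. Granzyme A gave iBAT signals of 140 (WT) and 172 (ASK1-deficient) and eWAT signals of 1823 (WT) and 830 (ASK1-deficient) at its probe on chromosome 13 from 113884035 to 113884094. The log2 ratio between the tissues was 2.78 in WT and 1.5 in ASK1-deficient mice. Il2rb, the interleukin 2 and 15 receptor chain of NK cells, had 1.84 and 0.52, and Klrd1, the CD94 receptor chain, was at least 4.97-fold higher in WT eWAT and had 1.53 in ASK1-deficient mice. Perforin differed little between the tissues, with log2 ratios of -0.09 and -0.34 for Prf1. The Nkg7 probes did not give one answer, since one had 2.31 and 1.05 and the other -0.32 and -0.82. Nkg7 encodes a protein of cytotoxic granules.

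The members of the B cell class other than Igj had tissue ratios on both sides of 0. Cd79a had log2 ratios of 0.45 (WT) and 1.15 (ASK1-deficient), and Cd79b, its partner, had log2 ratios of 0.49 (WT) and 0.68 (ASK1-deficient). Cr2, the complement receptor 2, had 0.05 and -0.10, with its probes on opposite sides of 0, and Fcer2a, the low-affinity IgE receptor CD23, had -0.49 and -0.24. Ms4a1, which encodes CD20, had 0.41 in WT and was at least 4.01-fold higher in eWAT of ASK1-deficient mice, where iBAT was below detection. The joining chain gene Igj had 2.57 and 1.73. The IgM heavy chain probe, which is no member, had 4.97 and 5.85. Among 17 other B cell genes, 7 of 11 measured in WT were at least 2-fold higher in eWAT, Btk, a kinase of B cell receptor signalling, with the largest log2 ratio of 3.41, and Vpreb3 was lower at -2.55. Which cells carried the RNA of these genes was not tested, and macrophage genes had a median of 3.00 in the same comparison. Of other T cell genes 3 of 10 measured were at least 2-fold higher and 1 lower, with a median of 0.63, and this leaves out genes detected in WT eWAT alone, since 10 of the 21 listed were detected in WT iBAT and 18 in WT eWAT. Of other NK and cytotoxic genes 2 of 6 were at least 2-fold higher and 2 lower, Gzmk at -1.69 and Gzmm at -1.40, with a median of 0.07 that was -0.24 with normexp background correction. Of the 17 listed, 6 were detected in WT iBAT and 15 in WT eWAT, so the median leaves out 9 genes detected in eWAT alone, such as Klrb1c, with signals of 5.16 and 110. Over all genes these shares are the 13.4% and 16.4% given above.

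**Figure D2:**
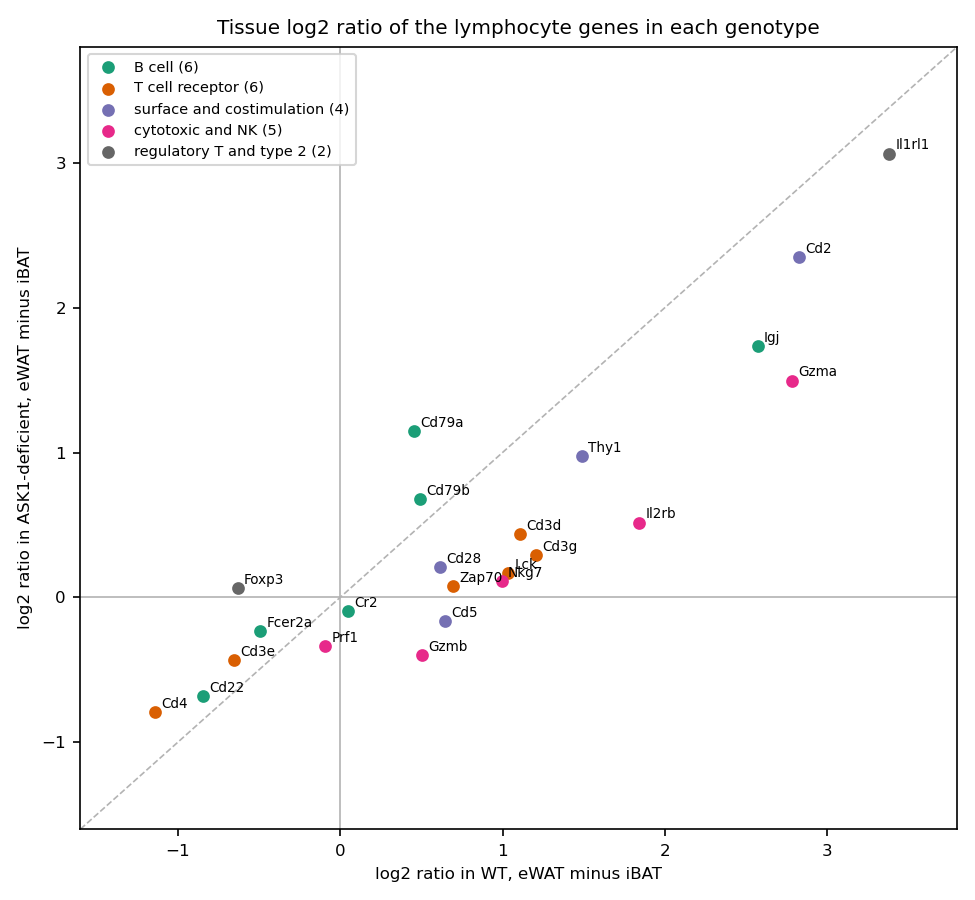
Log2 ratio of eWAT minus iBAT in WT (horizontal axis) against the same ratio in ASK1-deficient mice (vertical axis) for the 23 lymphocyte genes with a value in all 4 conditions, 1 point per gene coloured by class, with the dashed line marking equal ratios. All 5 cytotoxic genes lie below the line, as do 4 of the 6 T cell receptor genes, with Cd4 and Cd3e above it, and of the 6 B cell genes Cd22, Cd79a, Cd79b and Fcer2a lie above it and Igj and Cr2 below.

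In ASK1-deficient mice 8 of 27 members were at least 2-fold higher in eWAT than in iBAT, which 12.6% of all genes were, and 0 were at least 2-fold lower, which 12.3% of all genes were. These counts leave out Icos, Ms4a1 and Pou2af1, below detection in ASK1-deficient iBAT and at least 2-fold higher in eWAT, Pou2af1 by at least 8.01-fold. The members' median was 0.21, beside -0.03 over all 14513 genes measured, and it was -0.11 with normexp background correction. This comparison and that of the genotypes use the same arrays, so its difference from the WT comparison is the same quantity as the difference between the genotype ratios of the tissues. For 16 of the 23 members with a value on all 4 arrays the genotype ratio was higher in iBAT than in eWAT, 69.6%, beside 39.0% of all 14059 genes with both values. The share of all genes depends on the scaling, from 27.8% with the series table to 58.8% without scaling, while the members stayed at 16 under each scaling tried and were 15 with normexp. Markers of other leukocytes were higher in eWAT as well. Of 10 pan-leukocyte genes, such as Ptprc, which encodes CD45, 8 of 9 measured in WT were at least 2-fold higher in eWAT, with a median of 2.63, as were 13 of 14 macrophage genes, with a median of 3.00. Of 6 mast cell genes measured in WT, 4 were at least 2-fold higher in eWAT and 2 were below 0, with a median of 1.98. The part of these cells in the tissue ratios of the members was not tested.

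The fit of genotype and tissue over the 4 arrays with limma covered 14057 genes, of which 23 were members. At an adjusted p under 0.05, 13 of the 23 members had a tissue effect, beside 55.5% of all genes. Il1rl1 had the lowest adjusted p, with a tissue effect of 3.22 ± 0.16 (SE, log2) and adjusted p = 3.3e-05 by limma with Benjamini-Hochberg adjustment. Cd2 followed with 2.67 ± 0.16 and adjusted p = 5.9e-05, and Igj with 2.15 ± 0.22 and 0.00044. Of these, 10 were higher in eWAT, as 24.6% of all genes were, and 3 lower, as 30.8% were. The lower ones were Cd4, Cd22 and Cd3e, at -0.97, -0.76 and -0.54. The Cd3e probe also holds AATAAA, and Cd3d and Cd3g, which encode the other chains of the same complex, had positive effects of 0.77 and 0.75. This fit has 1 residual degree of freedom, and its error is how far the ratios of the genotypes differ and not the spread between mice.

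ASK1-deficient and WT eWAT were then compared. All measured cytotoxic and costimulation genes and 5 of 7 T cell receptor genes had ratios below 0, of which Gzma alone was 2-fold lower, and Pou2af1 and the joining chain gene Igj had ratios above 0. Of 31 members measured, 1, Pou2af1, was at least 2-fold higher, which 0.286% of all genes were, and 1, Gzma, was at least 2-fold lower, which 0.865% of all genes were. Below 0 were 21 of the 31, beside 45.9% of all 15377 genes measured, and the median was -0.23 for the members and 0.02 for all genes. Under each alternative the medians of the cytotoxic, T cell receptor and costimulation classes stayed below 0, at their closest -0.44, -0.25 and -0.23.

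All 6 measured cytotoxic and NK genes were below 0, with a median of -0.56. Gzma, with the signals of 1823 and 830 given above, had a log2 ratio of -1.05, a 2.07-fold difference. Klrd1 read 185 (WT) and 112 (ASK1-deficient) in eWAT, for a log2 ratio of -0.64, and Il2rb gave 211 and 131, a log2 ratio of -0.60. Each of these differences is larger than the 95th percentile of the SD between repeated spots, 0.23 in eWAT, but each rests on 1 array per genotype. The Nkg7 probes had -0.79 and -0.27, Gzmb, which encodes granzyme B, had -0.34, and Prf1 had -0.12. Klrk1, which encodes the activating receptor NKG2D, gave 30.02 in WT eWAT and was not well above background in ASK1-deficient eWAT, where it was at least 1.36-fold lower.

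The other NK and cytotoxic genes ran the same way. Of 12 measured in eWAT, 11 were below 0, with a median of -0.61 and 2 at least 2-fold lower, and the median was -0.26 with normexp background correction and -0.40 with probes detected on all 4 arrays. Xcl1, a chemokine that NK cells and killer T cells release, gave 69.3 and 22.3, a log2 ratio of -1.55. Fasl, the death ligand of killer cells, gave 53.9 and 21.8, a log2 ratio of -1.22. The activating NK receptor gene Ncr1 had -0.91, the NK1.1 gene Klrb1c -0.90 and the chemokine gene Ccl5 -0.75, and Gzmm alone was above 0, at 0.10.

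Of 7 measured genes of the T cell receptor class, 5 were below 0, with a median of -0.43. Cd3g read 165 (WT) and 79.8 (ASK1-deficient) in eWAT, for a log2 ratio of -0.96. Lck, the kinase that starts receptor signalling, gave 890 and 443, a log2 ratio of -0.92. Cd3d gave 198 and 133, a log2 ratio of -0.48. These eWAT signals of WT stood above those of all other arrays for each of the 3 genes. The exceptions were Cd4 and Cd8b1, at 0.06 and 0.07, while Cd3e had -0.16. The Zap70 probes had -0.24 and -0.62.

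All 7 measured genes of surface and costimulation were below 0, between -0.47 and -0.13. Cd28, the main costimulatory receptor of T cells, gave 140 and 95, a log2 ratio of -0.47, and Cd5, which dampens receptor signals, gave 189 and 131, a log2 ratio of -0.45. The related inducible costimulator Icos had -0.46 over 2 probes, Cd27 -0.34, Thy1 -0.26, Il7r -0.15 and Cd2 -0.13. The range for this class was narrower than for the cytotoxic genes. Of 15 other T cell genes measured, 13 were below 0 and the median was -0.54, or -0.34 with normexp and -0.32 without the filter on dim probes. Among them were Ccr7, the receptor that guides naive T cells, at -0.84, and the adaptor gene Lat at -0.75, neither of them 2-fold.

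Both detected probes of the constant region of the T cell receptor beta chain were also lower, with signals of 648 and 309 at one and 921 and 508 at the other in WT and ASK1-deficient eWAT. Their log2 ratios were -0.98 and -0.77. A T cell receptor alpha probe read 147 and 156, for a log2 ratio of 0.17, and a probe named for the alpha variable segment Trav3n-3 read 97.4 and 56.2, for a log2 ratio of -0.71. These probes are no members and were chosen by their description or gene name after values had been seen, as were the immunoglobulin probes given below.

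Lists of other leukocyte genes did not share one size of difference. The 10 pan-leukocyte genes were all below 0, with a median of -0.36 and none 2-fold lower, and the 7 mast cell genes measured had a median of -0.28, while the 15 macrophage genes had a median of -0.02. The summed level of the pan-leukocyte list in eWAT was 45.9 (WT) and 35.8 (ASK1-deficient), and that of the macrophage list 147 and 146. The medians of the cytotoxic and T cell receptor classes lay below that of the pan-leukocyte list, and no test of that difference was possible. Whether the hepatocyte RNA on the WT eWAT array takes part in these values was not tested.

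**Figure D3:**
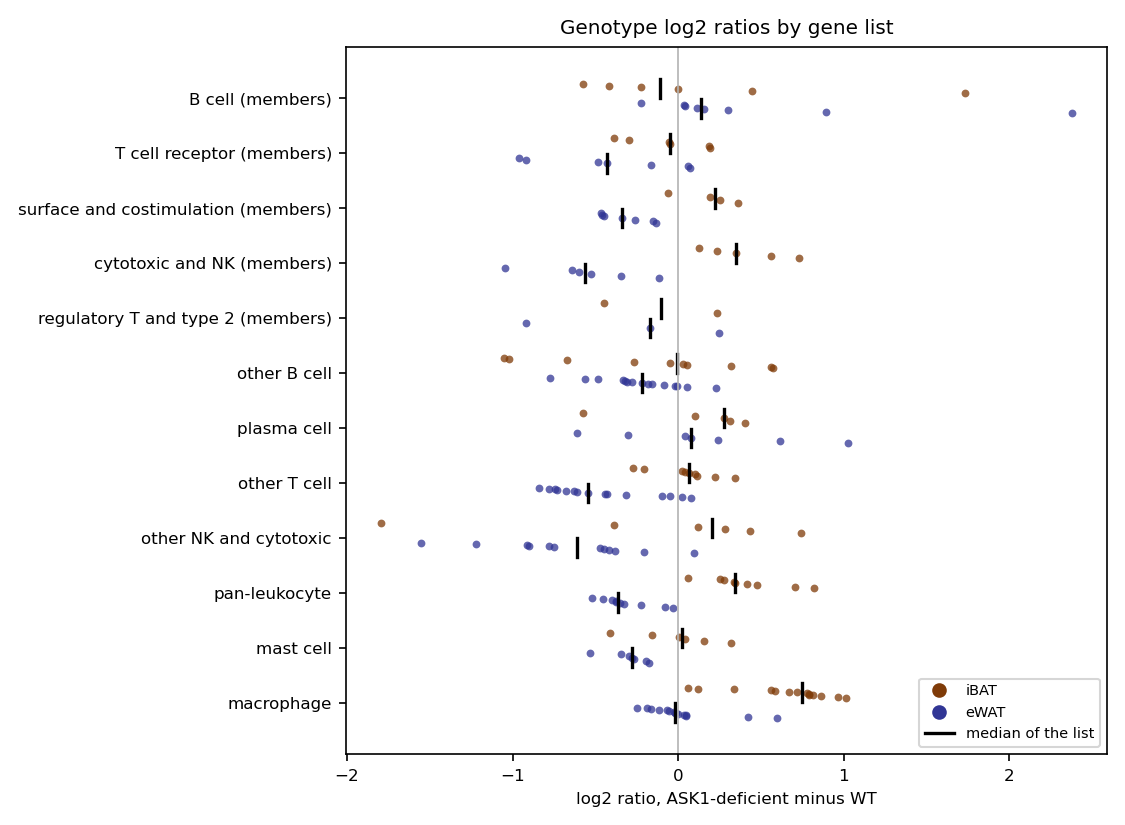
Log2 ratio, ASK1-deficient minus WT, of every measured gene of the 5 member classes and of 7 other lists (1 point per gene, brown iBAT, blue eWAT, black bars the median of the list). In eWAT all cytotoxic and NK members and all pan-leukocyte genes lie left of 0, as do most T cell and other NK genes, the macrophage genes around 0, and in iBAT the macrophage and pan-leukocyte genes lie right of 0.

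Unlike the other B cell genes given below, the B cell class of members lay mostly above 0 in eWAT. Of its 8 measured genes, 7 were above 0, which 54.1% of all genes were, with a median of 0.14. Most of these were close to 0: Ms4a1, which encodes CD20, had 0.04, Fcer2a 0.04, Cd79a 0.12 and Cd22 0.16, while Cr2 had 0.30 and Cd79b, the 1 below 0, had -0.23. Without scaling the median was 0.05 and 3 of the 8 were below 0. Pou2af1 and Igj had the largest ratios of the class. Pou2af1 encodes a coactivator of immunoglobulin transcription in B cells and plasma cells, and its probe on chromosome 9 from 51048121 to 51048180 read 48.2 (WT) and 236 (ASK1-deficient) in eWAT. It was not well above background in either iBAT pool. The log2 ratio in eWAT was 2.38, a 5.21-fold difference, and it was 1.34 with normexp background correction. Igj, on chromosome 5 from 88949919 to 88949978, read 704 (WT) and 1228 (ASK1-deficient) in eWAT, for a log2 ratio of 0.89 or 1.85-fold.

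Plasma cell genes did not share one direction in eWAT. Of 7 measured, 5 were above 0 and 2 below, with a median of 0.08. Irf4, a transcription factor of plasma cells that other leukocytes and adipocytes also use, gave 463 and 886, a log2 ratio of 1.02. Mzb1, a chaperone of IgM assembly, had 0.61 and Tnfrsf17, the survival receptor BCMA, 0.24, whereas Sdc1 had -0.31 and Prdm1 -0.61. Of the 15 other B cell genes measured, 13 were below 0, with a median of -0.22.

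Immunoglobulin probes varied by chain. The probe of the IgM heavy chain, printed in 10 spots, read 8569 (WT) and 12441 (ASK1-deficient) in eWAT, for a log2 ratio of 0.63. The kappa light chain probe gave 1928 and 3564, a log2 ratio of 0.97, while a probe named for the kappa variable segment Igkv4-72 gave 157 and 145, a log2 ratio of -0.03, and the probe named Igkc was detected on no array. The 3 lambda light chain probes had between 0.63 and 0.78. Both probes described as IgG2a were higher as well, with 0.71 and 1.0, and the probe described as IgG2c was detected on no array. Which of these isotypes the probes report was not checked. IgD, which naive B cells carry, was lower at -0.57, and 3 probes described as J558 family or heavy chain complex transcripts, on chromosome 12 between 114496985 and 114498407, were lower with log2 ratios between -0.92 and -0.74. The positions of these 3 probes lie beyond the IgG2c probe at 114523536, away from the IgM probe at 114659630. Which heavy chain gene they report was not assigned. Heavy chain probes thus lay on both sides of 0 in eWAT.

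Of the regulatory T and type 2 genes measured in eWAT, Foxp3 read 36.1 (WT) and 40.4 (ASK1-deficient), for a log2 ratio of 0.25, while Gata3 gave 228 and 113, a log2 ratio of -0.92, and Il1rl1 had a mean of -0.17 over 3 probes. The low signal of Foxp3, near the detection limit on every array, leaves its small ratio uncertain. Of 11 related genes measured, 8 were below 0, with a median of -0.12. Klrg1, a receptor of mature NK cells and type 2 innate lymphoid cells, had -0.83 and Il33, the ligand of Il1rl1, had -0.40.

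Among the members measured in iBAT, Igj had the largest difference between the genotypes. Of 23 members measured, 1, Igj, was at least 2-fold higher in the ASK1-deficient pool, which 0.835% of all genes were, and 0 were at least 2-fold lower, which 1.02% of all genes were. Ms4a1 is outside this count, since it was not detected in the ASK1-deficient pool, and it was at least 2.94-fold lower there. The median was 0.18 for the members and -0.07 for all 14377 genes measured, and 13 members were above 0, beside 40.5% of all genes. The 75th percentile over the probes detected on all 4 arrays gave a members' median of 0.29, and normexp background correction one of 0.04.

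Igj read 62.5 (WT) and 216 (ASK1-deficient) in iBAT, for a log2 ratio of 1.73 or 3.31-fold. It was thus higher in the ASK1-deficient pool of both tissues. Under the 9 alternatives tried its iBAT ratio lay between 1.19 and 1.83. Several immunoglobulin chains were higher on the same array, and others were not. The probes described as IgG2a gave 67.3 and 525 at one and 39.6 and 229 at the other, with log2 ratios of 2.90 and 2.47. Another probe of an IgG heavy chain had 2.55, the kappa light chain gave 194 and 570, a log2 ratio of 1.49, and the J558 family and heavy chain complex transcripts had between 1.69 and 1.85. The 3 lambda light chain probes had between 0.40 and 0.53. Below 0 were the IgM probe, with 144 and 126, a log2 ratio of -0.25, and the IgD probe, with 40.3 and 31.2, a log2 ratio of -0.43.

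**Figure D4:**
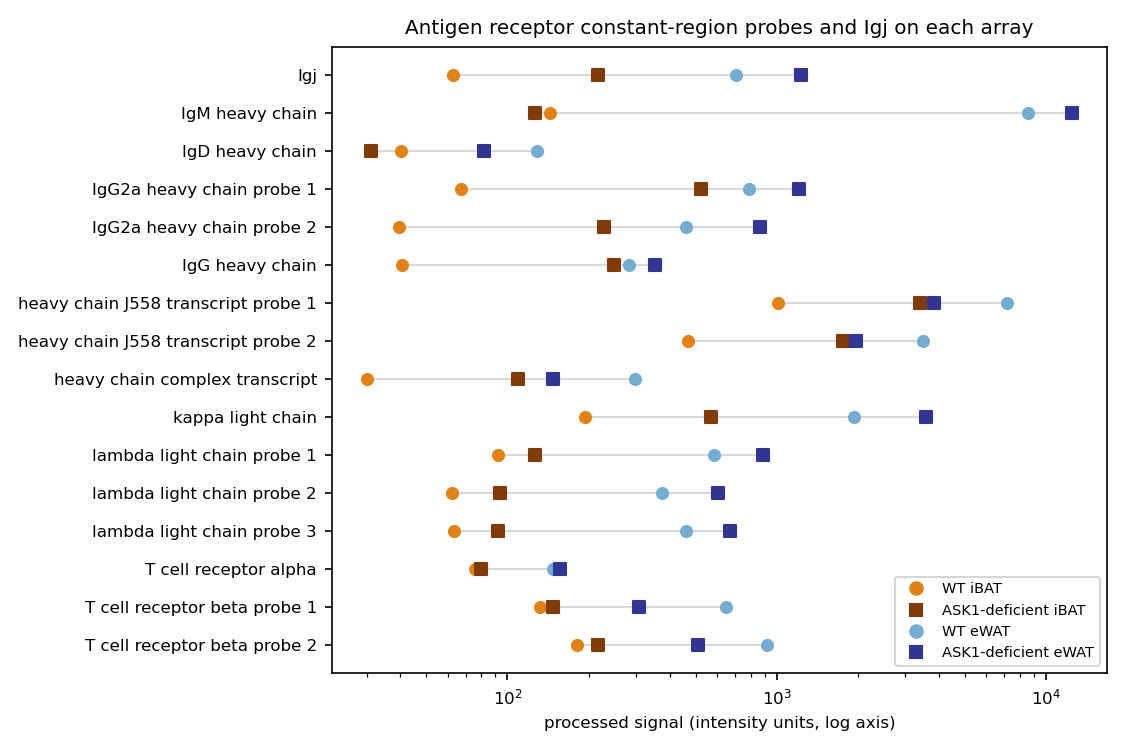
Processed signal (intensity units, log axis) of Igj and of each immunoglobulin or T cell receptor probe detected on all 4 arrays, with 1 point per array (circles WT, squares ASK1-deficient, orange and brown iBAT, light and dark blue eWAT). IgG2a, IgG, kappa and Igj are higher in ASK1-deficient than in WT iBAT, IgM is far higher in eWAT than in iBAT, and the J558 and T cell receptor beta probes are highest in WT eWAT.

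Genes of the B cell surface did not follow Igj in iBAT. Cd79a gave a log2 ratio of -0.58, Cd79b, with 137.5 and 107.5, one of -0.42, Fcer2a one of -0.22 and Cd22 one of -0.003. Ms4a1 gave 50.4 in WT iBAT and was not well above background in ASK1-deficient iBAT, where it was at least 2.94-fold lower. Cr2 alone among them was above 0, at 0.45, with its probes at 0.48 and 0.41. Of 10 other B cell genes measured, 5 were above and 5 below 0. Vpreb3, a gene of B cell receptor assembly, gave 223 and 112, a log2 ratio of -1.05, and Ly6d had -1.02. Of 5 plasma cell genes measured, 4 were above 0, between 0.10 and 0.41, and Irf4 had -0.57.

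All 5 measured cytotoxic and NK genes were above 0 in iBAT, with a median of 0.35 that lay between 0.24 and 0.45 under the alternatives. Il2rb read 31.1 (WT) and 53.7 (ASK1-deficient) in iBAT, for a log2 ratio of 0.73, and Gzmb gave 26.3 and 40.4, a log2 ratio of 0.56. The Nkg7 probes had 0.47 and 0.24, Gzma had 0.24 and Prf1 0.13. None of these differences was 2-fold. Of the other NK and cytotoxic genes 4 of 6 measured were above 0, with a median of 0.20, and those below were Gzmk, with 593 and 179, a log2 ratio of -1.79, and Gzmm at -0.39. This median was -0.005 with normexp and 0.02 without the filter on dim probes, so its direction is not stable. Of the other T cell genes 7 of 9 were above 0, with a median of 0.07. With median centring and the series table this median was -0.01 and -0.02, and 5 of the 9 were below 0. The T cell receptor class was spread around 0, with 2 of 6 genes above it and a median of -0.05 whose sign depended on the scaling, and Cd8b1, detected in the ASK1-deficient pool only, was at least 1.17-fold higher there. Above 0 were Cd3d at 0.19 and Zap70 at 0.18, whose probes had -0.14 and 0.51. Below 0 were Cd3e at -0.39, Cd4 at -0.30, Cd3g at -0.05 and Lck at -0.05. Of the surface genes Cd5 had 0.36, Thy1 0.25, Cd2 0.19 and Cd28 -0.06, and Icos, not detected in the ASK1-deficient pool, was at least 1.69-fold lower.

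Macrophage and pan-leukocyte genes were higher on the ASK1-deficient iBAT array. All 14 macrophage genes measured were above 0, with a median of 0.75, and the summed level of this list in iBAT was 24.2 (WT) and 34.3 (ASK1-deficient). All 9 pan-leukocyte genes measured were above 0, with a median of 0.34 and summed levels of 9.23 and 11.4. The mast cell list did not share this, with 4 of 6 measured above 0, a median of 0.03 and summed levels of 3.91 and 3.74. In the lymph node stroma list, 3 of 6 genes were detected in iBAT, all above 0, with Cxcl13, the chemokine of B cell follicles, at 0.44, the vessel addressin gene Madcam1 at 0.32 and Ccl19, a chemokine of T cell zones, at 0.26, and summed levels of 0.493 (WT) and 0.658 (ASK1-deficient). In eWAT 4 of the 6 were detected, with Cxcl13 at 0.81, Chst4 at 0.15, Madcam1 at 0.08 and Ccl19 at -0.68, and summed levels of 2.17 (WT) and 2.13 (ASK1-deficient). Glycam1 and Tnfsf11 were detected on no array. The part of these cells in the lymphocyte values was not tested.

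**Figure D5:**
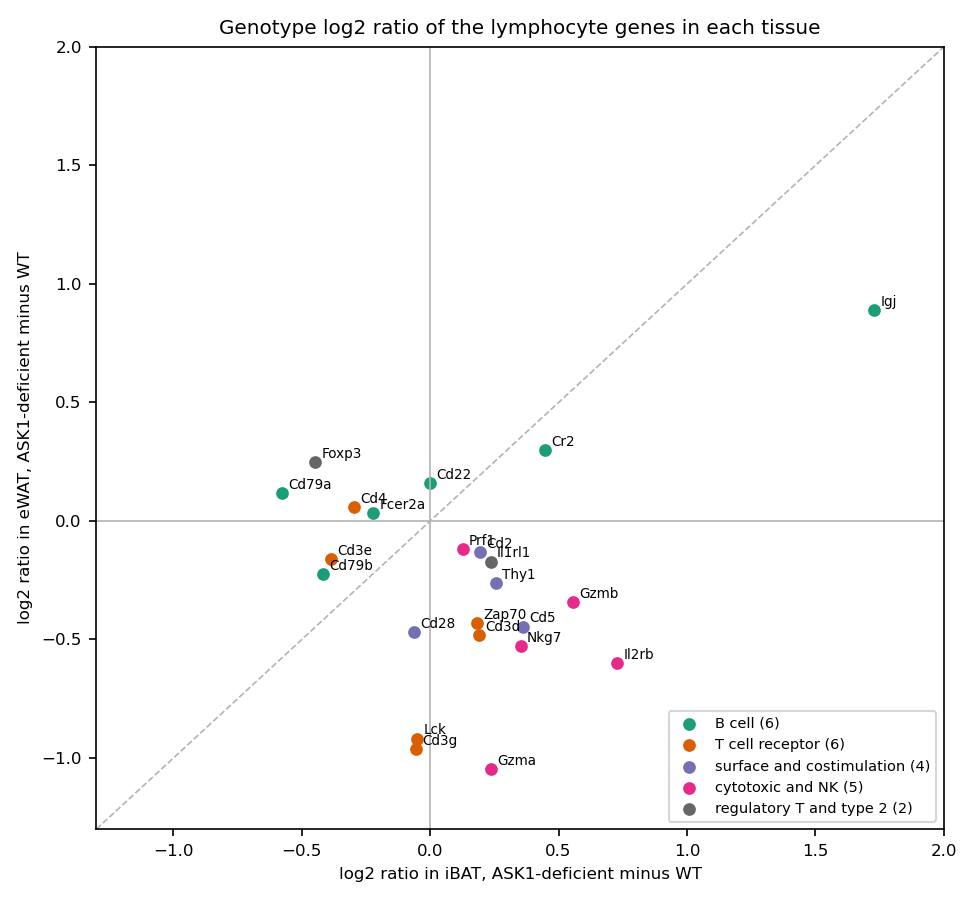
Log2 ratio, ASK1-deficient minus WT, in iBAT (horizontal axis) against eWAT (vertical axis) for the 23 lymphocyte genes measured in both tissues, 1 point per gene coloured by class, with the dashed line marking equal ratios. Igj lies at the upper right, apart from the rest, and the cytotoxic genes lie at the lower right, above 0 in iBAT and below 0 in eWAT.

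Taking genotype over both tissues, the limma fit called 0 of 23 members and 0 of 14057 genes at an adjusted p under 0.05. At an unadjusted p under 0.05 there were 2 members, Igj and Cr2, beside 770 genes or 5.48%. Igj had an effect of 1.31 ± 0.22 (SE, log2) with adjusted p = 0.44 by limma. With median centring, the series table and normexp background correction Igj was the 1 member that passed, with adjusted p = 2.4e-05, 3.3e-05 and 0.033, beside 139, 128 and 24 of the 14057 genes. With the other 4 alternatives no member passed, at a lowest adjusted p between 0.37 and 0.93.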

How the data were processed

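The 4 samples were assigned to genotype and tissue from their labels, each array holding Cy3-labelled RNA pooled from 3 mice. The authors deposited Agilent Feature Extraction 10.7.3.1 output (protocol GE1_107_Sep09, probe positions on mm9), whose processed signal is a linear intensity with the spatial trend removed, dim spots replaced by surrogate values and nothing scaled between arrays. They also deposited a series table, a signal on a linear scale that equals the processed signal divided by 1 constant per array, which sets its median to 1. Depth does not apply to arrays, and no spot was saturated.

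Control spots and outlier-marked spots were left out, spots of one probe averaged as log2, and each array's 75th percentile subtracted. A probe counted as detected where the scanner software marked over 50% of its spots in use as well above background. A gene's log2 ratio is the mean over its probes detected on both arrays, genes at least 2-fold apart were counted, and a probe detected on 1 array was given a bound. Of 34844 names, 22147 matched the RefSeq table (GRCm38.p6, used for names and chromosomes only), giving 22066 genes. No mm9 genome was used, so exons and UTRs were not assigned. Genotype and tissue were fitted together with limma (lmFit, eBayes, Benjamini-Hochberg over 14057 genes), which the small design supports with 1 residual degree of freedom. The spread between spots comes from probes with at least 5 usable spots.

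The members and lists were chosen with earlier results of these data known. All measured members enter the counts and medians. Other lists are given by counts and medians, with members at least 2-fold apart or typical ones named. The antigen receptor probes were taken by their description or gene name, after seeing values. Alternatives replaced the scaling (none, quantile, median, or the 75th percentile of probes detected on all 4 arrays), the background correction (normexp, offset 50), the source (series table), the dim-probe filter (none, or detected on all 4 arrays), the choice of probe (brightest) or the threshold (1.5-fold). All 4 arrays lay on 1 slide. Steps were tested on simulated data. Fits ran in limma 3.58.1 under R 4.3.3, and all else in Python 3.11.15 with pandas 2.3.3, numpy 2.4.6 and matplotlib 3.10.9.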

Additional observations from a re-analysis of the deposited data

Results flagged for a closer look

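Of the 23 members measured in both tissues, 5 had genotype log2 ratios of opposite sign in iBAT and eWAT, each larger than the 95th percentile of the SD between repeated spots (0.33 in iBAT, 0.23 in eWAT). This is 21.7% of the members, beside 3.08% of all 14059 genes with both values, and the difference between the tissues was not tested, since each value rests on 1 array per condition. Above 0 in iBAT and below 0 in eWAT were Il2rb, with 0.73 and -0.60, Gzmb, with 0.56 and -0.34, Nkg7, with 0.35 and -0.53, and Cd5, with 0.36 and -0.45. Foxp3 had the opposite order, -0.45 in iBAT and 0.25 in eWAT, at signals between 22.6 and 40.4. The iBAT signals of Il2rb (31.1 and 53.7) and Gzmb (26.3 and 40.4) were also low. Spots of dim probes could vary more than these percentiles. Those of Cd2 in ASK1-deficient iBAT, with a median signal of 21.2, had an SD of 0.38 (log2). The number of members with such opposite ratios depends on the processing. It was 3 with median centring or the series table, where Cd5 and Nkg7 no longer passed, 4 without scaling or with quantile normalization, 6 with the 75th percentile over detected probes, and 0 with normexp, where 1.22% of all genes passed. Without the filter on dim probes 10 of 37 passed, beside 6.09% of all genes. With the brightest probe of each gene Nkg7 no longer passed and Zap70 did. The order was not particular to the members. All 9 pan-leukocyte genes measured in iBAT were above 0 there, and all 10 measured in eWAT were below 0, such as Ptprc with 0.82 and -0.40.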

How the results depend on the processing

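No paired analysis was possible because each condition has 1 array and the labels give no shared replicate numbers, and the limma fit of genotype holds tissue as its other factor. Leaving out an array leaves the limma fit with 0 residual degrees of freedom, so this was not run. Of the alternative values computed for the main results, 94 kept their size, 35 moved and 1 changed sign. The median log2 ratio of the members in iBAT became 0.29 with the 75th percentile over detected probes and 0.0397 with normexp, and in eWAT -0.31 without scaling, -0.12 with normexp and -0.16 with the brightest probe. Between the tissues in WT it became 1.56 without scaling, 0.78 with the 75th percentile over detected probes, 0.20 with normexp and 0.50 without the filter. In ASK1-deficient mice it reversed to -0.11 with normexp and was 0.98 without scaling, 0.29 with median centring, 0.28 with quantile normalization, 0.28 with the series table, 0.29 without the filter and 0.33 with the brightest probe. Counts at least 2-fold apart are small. In iBAT they became 2 higher and 2 lower without the filter and 2 higher at 1.5-fold. In eWAT they became 0 higher with probes detected on all 4 arrays, since Pou2af1 then has no value, 4 lower without scaling, 2 lower without the filter, and 2 higher and 6 lower at 1.5-fold. Between the tissues in WT there were 18 higher and 0 lower without scaling, 5 higher with normexp and 4 lower at 1.5-fold. In ASK1-deficient mice there were 13 higher without scaling, 5 higher with probes detected on all 4 arrays, 1 lower without the filter and 2 lower at 1.5-fold. The limma fit called 1 member for genotype with median centring, normexp and the series table, beside 139, 24 and 128 of 14057 genes, and 20 for tissue without scaling, beside 10864 genes.

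Class medians that changed sign in the genotype comparisons were those of the T cell receptor class in iBAT, at 0.00959 without scaling, 0.0513 with the 75th percentile over detected probes and 0.0669 without the filter, of the other T cell genes in iBAT, at -0.0123 with median centring and -0.0196 with the series table, of the regulatory T and type 2 class, at 0.52 in iBAT without the filter and in eWAT at 0.00686 with normexp, 0.0139 without the filter and 0.0833 with probes detected on all 4 arrays, and of the other NK genes in iBAT, at -0.00496 with normexp. Between the tissues the B cell class had -0.0257 in WT without the filter and the other NK genes -0.24 with normexp, and in ASK1-deficient mice the T cell receptor class had -0.18 with normexp and -0.14 without the filter, the cytotoxic class -0.056 with normexp, the other T cell genes 0.69 without scaling, 0.00675 with median centring and 0.0884 without the filter, and the other NK genes 0.64 without scaling and 0.12 without the filter. Scaling also shifts all genes: the median of all genes in iBAT was -0.07 as reported and 0.04 with the 75th percentile over detected probes, and between the tissues in WT -0.12 and 0.80 without scaling. The cause of these changes was not tested.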
